A study of Mus musculus with 8 samples.

Results

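Complement and coagulation factors are the plasma proteins that opsonise and lyse microbes, form the fibrin clot and dissolve it again. 43 mouse genes for such proteins were chosen by name from the list of hepatocyte-made complement, clotting and fibrinolysis proteins, through the accession that the array gives for each non-control spot. All 43 had at least 1 probe, 57 probes in all, among 21368 named genes. 42 of the 43 were bright enough to be tested, among 11072 genes tested. The gene that could not be tested was Tfpi, which encodes tissue factor pathway inhibitor: 1 of its 3 probes was well above background on 1 array of each genotype and the others on 0 arrays.

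Hepatocyte RNA was compared between 4 hCNR1+/+ mice (labelled hCNR1_WT, strain CNRO) and 4 hCNR1-/- mice (labelled hCNR1_cKO, strain CNRO Alb-Cre), males of 12 to 14 weeks on a standard diet, with 1 single-colour Agilent array per mouse. In the hCNR1-/- mice Cre under the albumin promoter deletes the floxed cannabinoid-1 receptor gene in hepatocytes, and the control label names no Cre, so that the deletion and Cre itself cannot be told apart. The mice were untreated, and the study's purpose was to learn how the hepatocyte receptor bears on liver damage and its inflammatory signalling. The genotypes are described as littermates, and each array is a separate mouse.

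In the complement cascade the classical, lectin and alternative pathways converge on cleavage of C3, after which C5 to C9 assemble into the membrane attack complex. Coagulation runs through a chain of serine proteases to thrombin, which turns fibrinogen into fibrin, and plasmin degrades the clot. The liver parenchymal cell is the main source of most of these proteins, and many of them are acute-phase proteins.

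All values of signal below are log2 of the spot intensity relative to the 75th percentile of the same array, so that 0 is the level of that percentile, and fold changes are differences between arrays for the same probe. Levels of different probes were used only to pick the brightest probe of a gene or role and to sum marker lists, and probes differ in how strongly they bind. The 75th percentile itself lay between 29.3 and 139 intensity units, lowest on hCNR1-/- replicate 4, which also correlated least with its own genotype (mean r of 0.942 across genes, against 0.964 to 0.980 for the other arrays). All arrays lay on 1 slide, controls in row 1 and hCNR1-/- mice in row 2, and the effect of the row cannot be told apart from that of genotype. The probe for Cnr1 was well above background on 0 of 8 arrays and therefore did not check the genotype labels. All 20 hepatocyte markers were tested, and their mean signal was 6.99 to 7.65 in controls and 6.90 to 7.24 in hCNR1-/- mice. The summed signal of 13 Kupffer cell markers was 6.49 to 7.45 on the log2 scale in controls and 5.81 to 6.35 in hCNR1-/- mice, without overlap, and 12 of the 13 were lower, with Timd4 and Cd163 above background on no array. The 2 neutrophil markers tested went opposite ways, Csf3r at -0.80 and the dimmer Elane at 0.70 on the log2 fold change scale. Their mean signal was 4.995 to 5.42 in controls and 4.92 to 5.60 in hCNR1-/- mice. Their summed signal, 7.13 to 7.63 in controls and 6.47 to 7.08 in hCNR1-/- mice, was mostly that of Csf3r. The defining neutrophil markers S100a9, Mpo and Camp were above background on no array, and Ly6g had no probe. The summed signal of the 3 lymphocyte markers tested was 6.39 to 6.70 in controls and 6.77 to 8.01 in hCNR1-/- mice, higher for all 3, while 8 of the 12 listed were above background on no array. The part of these cells' RNA in the values below was not tested. In such bulk RNA fewer cells of a type and less RNA per cell cannot be told apart.

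For 34 of the 42 complement and coagulation transcripts tested, the 95% interval of the log2 fold change included 0. None of the 42 passed an adjusted p of 0.05 in either direction in limma's moderated test, where 2.94% of all genes tested were called higher and 1.3% lower in hCNR1-/- hepatocytes. At an unadjusted p below 0.05, 2 members were higher (Cfd and C9) and 6 lower (C4bp, Klkb1, F7, Cpb2, F11 and Fgg), beside 14.7% and 6.92% of all genes. With a fold above 2 added to that p, C9 was the 1 member higher and C4bp and Klkb1 the 2 lower, beside 4.78% and 3.75% of all genes. The genotypes did not overlap for 1 member with higher values (C9) and 2 with lower values (C4bp and Cpb2), beside 12.7% and 5.04% of all genes. The members' shares were thus below the background for higher values and, by unadjusted p, above it for lower ones, and the list as a whole was given no test. The fold changes ranged from -1.14 to 1.12 on the log2 scale, and 28 of 42 members were lower, with a median of -0.17, whereas 43.4% of all genes were lower and their median was 0.08. Without hCNR1+/+ replicate 4 the count turned to 16 lower and 26 higher, and the median to 0.09 beside 0.11 for all genes. The standard error of a member's log2 fold change had a median of 0.34, which puts the 95% interval at about 0.76 on each side. This width is not a limit of detection, since C4bp, at -1.14, did not pass an adjusted p of 0.05 in limma. With 4 arrays per genotype, changes larger than 0.76 could therefore go uncalled.

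**Figure D1:**
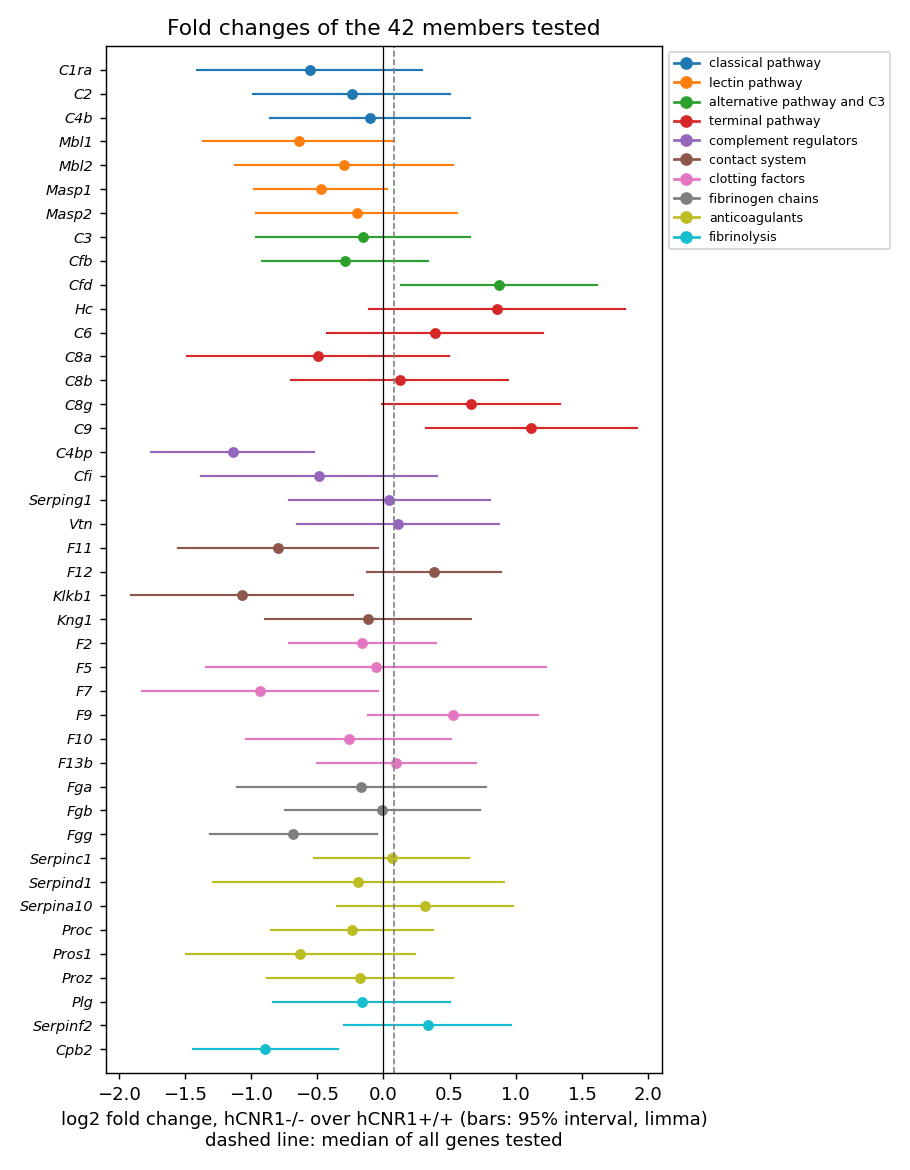
Log2 fold change (hCNR1-/- over hCNR1+/+) of the 42 members tested, with the 95% interval of the limma fit, ordered and coloured by role. The intervals of 8 members leave out 0, and C4bp (-1.14) and C9 (1.12) are the ends of the range.

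The complement regulator C4bp, whose protein binds C4b and helps factor I to inactivate it, had the lowest fold change. Its signal was 6.66, 6.02, 6.47 and 7.254 on the control arrays and 5.46, 5.66, 5.54 and 5.19 on the hCNR1-/- arrays. Every hCNR1-/- value was under every control value. The means were 6.60 ± 0.51 and 5.46 ± 0.20 (SD, n = 4 each), 2.20-fold lower in hCNR1-/- mice. The log2 fold change was -1.14 ± 0.28 (SE), with an adjusted p of 0.0515 in limma. The exact permutation test gave an unadjusted p = 0.0286, the smallest that 70 assignments allow (2-sided). Genotypes that do not overlap always give this p, so for C4bp, Cpb2 and C9 it only restates the lack of overlap. Of all genes tested, 12.7% had higher and 5.04% lower hCNR1-/- values without overlap. Over 23 alternative settings the log2 fold change of C4bp stayed between -1.70 and -0.90. Its adjusted p, between 0.00969 and 0.516, was below 0.05 in 8. Without hCNR1+/+ replicate 4 the log2 fold change was -0.92 with an adjusted p of 0.0804, and without hCNR1-/- replicate 4 the adjusted p was 0.044.

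Cpb2 encodes carboxypeptidase B2, which, once activated by thrombin, trims lysines from fibrin and slows its lysis. Its signal was 6.83, 6.54, 6.69 and 7.17 in controls and 5.72, 5.61, 6.405 and 5.93 in hCNR1-/- mice. The hCNR1-/- replicate 3 came nearest to the controls, and the genotypes did not overlap. The log2 fold change was -0.89 ± 0.24 (SE), 1.86-fold lower, with an adjusted p of 0.0713 in limma and p = 0.0286 in the exact permutation test (n = 4 each). Its adjusted p was below 0.05 in 4 of 23 alternatives, among them the fit without hCNR1-/- replicate 4 (0.0484), and was 0.136 without hCNR1+/+ replicate 4.

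Klkb1 and F11, plasma prekallikrein and factor XI, are neighbouring genes on chromosome 8 with no protein-coding gene between them, and their proteins are related proteases of the contact system. Klkb1 had a signal of -0.38, 0.08, 0.30 and 1.42 in controls and of -1.02, -0.475, -0.37 and -0.999 in hCNR1-/- mice, and it was well above background on 7 of 8 arrays. Its lowest control value lay just under the highest hCNR1-/- value. The log2 fold change was -1.07 ± 0.37 (SE), with an adjusted p of 0.136 in limma and p = 0.0571 in the exact permutation test (n = 4 each), and it was -0.71 with an adjusted p of 0.195 without hCNR1+/+ replicate 4. F11 had a signal of 3.81, 2.90, 4.14 and 4.49 in controls and of 3.23, 3.30, 2.90 and 2.70 in hCNR1-/- mice. Control replicate 2 lay among the hCNR1-/- values, and the other controls lay above them all. The log2 fold change of F11 was -0.80 ± 0.34 (SE), with an adjusted p of 0.209 in limma. For F11 the exact permutation test gave p = 0.114.

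For the other contact factors the interval of the log2 fold change included 0. F12 (factor XII, which starts the contact pathway on a charged surface) had a log2 fold change of 0.38 with an interval of -0.12 to 0.89. Kng1 (high-molecular-weight kininogen, the carrier of prekallikrein and factor XI) had a signal of 10.065, 9.86, 10.32 and 11.45 in controls and 9.96, 10.52, 10.19 and 10.56 in hCNR1-/- mice, with a log2 fold change of -0.12 and an interval of -0.90 to 0.66. The mouse has a closely related copy, Kng2, so that cross-hybridisation of the Kng1 probes was not tested.

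C9, the component that polymerises into the pore of the membrane attack complex, had the highest fold change. Its signal was 1.33, 1.33, 1.475 and 1.62 in controls and 1.87, 1.995, 2.83 and 3.53 in hCNR1-/- mice. The controls lay close together, the hCNR1-/- values were spread more widely and were all above them, and the dim array hCNR1-/- replicate 4 was the highest. The log2 fold change was 1.12 ± 0.36 (SE), 2.17-fold higher, with an adjusted p of 0.108 in limma and p = 0.0286 in the exact permutation test (n = 4 each), and it was 0.79 with an adjusted p of 0.0701 without hCNR1-/- replicate 4. C9 kept its direction over 23 alternatives (0.56 to 1.35).

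Hc, the gene of complement C5, had a signal of 4.70, 4.665, 5.20 and 6.714 in controls and of 5.88, 6.005, 6.33 and 6.50 in hCNR1-/- mice. Control replicate 4 was the highest of all 8 arrays, and the other controls were all under the hCNR1-/- mice. With all arrays the log2 fold change was 0.86 ± 0.43 (SE) with an adjusted p of 0.284 in limma. The exact permutation test gave p = 0.171 (n = 4 each). Without hCNR1+/+ replicate 4 the log2 fold change was 1.32 with an adjusted p of 0.0396 in limma. Hc was the only member to pass in that fit, where 1.94% of all genes passed in either direction. With any other array left out the adjusted p of Hc was 0.314 to 0.495. Over 23 alternatives it was below 0.05 in 3. It reached 0.892 without scaling, at a log2 fold change of 0.30. C8g, the lipocalin-like chain of C8, had a signal of 8.205, 8.73, 8.72 and 9.16 in controls and of 8.85, 9.51, 9.13 and 9.97 in hCNR1-/- mice. The genotypes overlapped in part, and the log2 fold change was 0.66 ± 0.30 (SE), with an adjusted p of 0.236 in limma. For C8g the exact permutation test gave p = 0.0857.

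Among the 6 terminal components, 5 had higher values and 1 lower, with a median of 0.53, beside 6264 higher of all 11072 genes tested. None passed an adjusted p of 0.05, and 1 (C9) had an unadjusted p below 0.05, where 14.7% of all genes were higher. C6 and C8b, which join C5b and C8a in the complex, had log2 fold changes of 0.39 and 0.12. C8a, the chain of C8 that inserts into the membrane, was at -0.50 with an interval of -1.48 to 0.49. C8a and C8b are neighbours on chromosome 4 with no protein-coding gene between them. Without hCNR1+/+ replicate 4 the 6 still stood at 5 higher and 1 lower, with a median of 0.76, beside 6462 higher of all 11072 genes. That fit moved 39 of the 42 members upward. Over the 23 alternatives C6 ranged from -0.17 to 0.71 and C8b from -0.43 to 0.53, both lowest without scaling. All genes had a median of -0.47 there. C8b was also at -0.04 under quantile normalization. Hc, C8g and C9 were higher and C8a lower in every alternative.

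**Figure D2:**
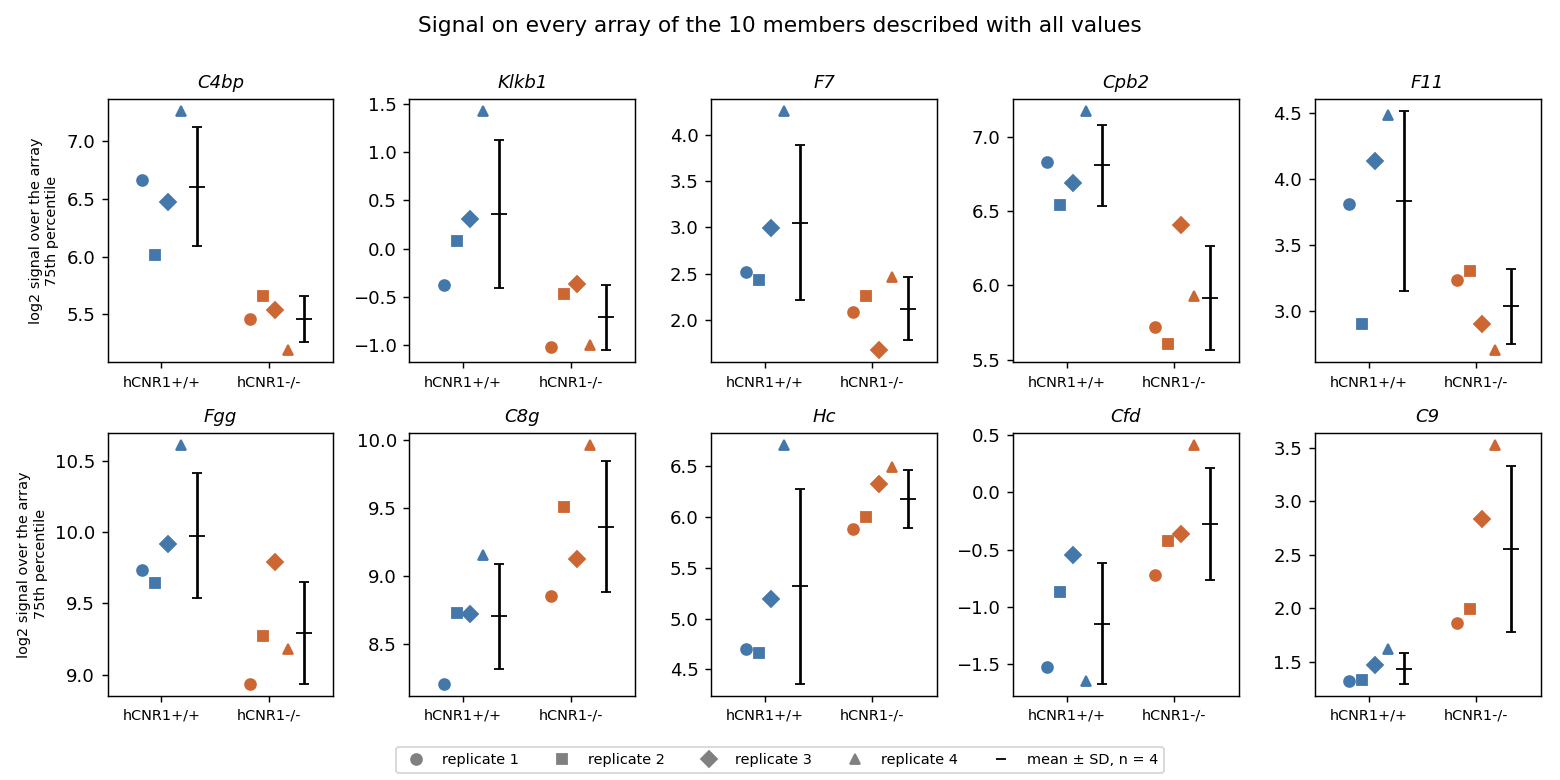
Log2 signal over the array's 75th percentile on each of the 8 arrays for the 10 members with the largest fold changes, ordered by fold change. Symbols mark the replicate, and bars the mean ± SD of 4 mice. The genotypes do not overlap for C4bp, Cpb2 and C9, and the triangle of hCNR1+/+ replicate 4 is the highest control in 9 of the 10 panels.

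The 300 bases around the start of these genes, from 250 bases before the start to 50 after it, are shown for the members whose groups did not overlap (C4bp, Cpb2 and C9), for the neighbours Klkb1 and F11, and for Hc. They are RefSeq sequences of build GRCm38.p6 read in the direction of the gene, and 33 of the 43 members had such a sequence. Capitals mark matches on either strand to 4 short motifs. GTTAAT is the core bound by the liver factor HNF1. TTNNGCAA is a site of the C/EBP type. CTGGGAA is the core of the interleukin-6 response element of fibrinogen genes, and TATAAA is the core promoter element found upstream of some start sites.
C4bp (chr1:130661569-130661868, minus strand): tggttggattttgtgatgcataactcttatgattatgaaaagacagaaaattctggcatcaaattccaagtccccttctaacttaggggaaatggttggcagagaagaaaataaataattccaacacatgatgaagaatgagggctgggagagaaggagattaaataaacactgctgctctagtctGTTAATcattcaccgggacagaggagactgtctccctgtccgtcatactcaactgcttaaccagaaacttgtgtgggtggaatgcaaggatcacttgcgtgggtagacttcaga
Cpb2 (chr14:75242037-75242336, plus strand): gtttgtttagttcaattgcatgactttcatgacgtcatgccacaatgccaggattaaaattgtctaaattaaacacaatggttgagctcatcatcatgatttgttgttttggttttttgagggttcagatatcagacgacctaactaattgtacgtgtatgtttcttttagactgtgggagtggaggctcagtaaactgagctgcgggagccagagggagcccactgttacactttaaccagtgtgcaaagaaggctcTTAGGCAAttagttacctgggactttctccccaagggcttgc
Klkb1 (chr8:45294786-45295085, minus strand): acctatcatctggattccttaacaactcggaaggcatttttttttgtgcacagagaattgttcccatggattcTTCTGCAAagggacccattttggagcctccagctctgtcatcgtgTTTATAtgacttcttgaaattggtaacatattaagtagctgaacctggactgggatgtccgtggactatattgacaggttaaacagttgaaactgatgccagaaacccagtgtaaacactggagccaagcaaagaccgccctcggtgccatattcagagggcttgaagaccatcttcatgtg
F11 (chr8:45261982-45262281, minus strand): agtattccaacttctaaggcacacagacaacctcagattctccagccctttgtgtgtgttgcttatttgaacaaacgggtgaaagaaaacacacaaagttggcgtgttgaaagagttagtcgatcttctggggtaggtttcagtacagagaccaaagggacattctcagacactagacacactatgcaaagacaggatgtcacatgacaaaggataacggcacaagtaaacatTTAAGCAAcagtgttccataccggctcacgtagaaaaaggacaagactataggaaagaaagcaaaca
C9 (chr15:6445096-6445395, plus strand): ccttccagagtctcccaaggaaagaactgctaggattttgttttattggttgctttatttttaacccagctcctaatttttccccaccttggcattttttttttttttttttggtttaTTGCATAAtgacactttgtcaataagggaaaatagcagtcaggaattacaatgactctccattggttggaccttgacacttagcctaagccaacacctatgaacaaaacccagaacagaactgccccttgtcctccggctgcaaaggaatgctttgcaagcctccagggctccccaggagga
Hc (chr2:35061363-35061662, minus strand): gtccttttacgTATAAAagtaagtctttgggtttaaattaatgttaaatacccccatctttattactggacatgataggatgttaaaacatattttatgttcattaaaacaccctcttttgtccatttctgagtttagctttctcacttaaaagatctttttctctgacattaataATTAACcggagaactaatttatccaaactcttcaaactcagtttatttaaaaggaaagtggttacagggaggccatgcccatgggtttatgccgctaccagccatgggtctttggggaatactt

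C4bp held GTTAAT 64 bases before its start, and Hc held its reverse complement 74 bases before. C9, Cpb2, Klkb1 and F11 each held a TTNNGCAA match, that of Cpb2 lying 9 bases into the transcript. Over all 35 member promoters in the table, 31.4% held the HNF1 core against 7.10% of all 32851 promoters, 28.6% a C/EBP-type match against 10.8%, 22.9% CTGGGAA against 11.1%, and 14.3% TATAAA against 13.6%. A match is a run of letters and not a measured binding site, and no 2 matches overlapped in the sequences shown. CTGGGAA was in none of these 6 sequences and was held by the promoters of C1ra, C6, F9, Fgb, Fgg, Masp2, Tfpi and Vtn.

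Upstream of C3, every member of the classical and lectin pathways had a lower value, beside 43.4% of all genes tested. Of these 7 members, 0 had an unadjusted p below 0.05, where 6.92% of all genes were lower. C1ra (the C1r protease of the C1 complex) was at -0.56, C2 (the protease that C1s activates) at -0.24 and C4b at -0.10 on the log2 fold change scale. C4b is read with caution, since the mouse has a nearly identical copy of it. The signal of C4b was 9.485, 9.49, 9.79 and 10.65 in controls and 9.24, 9.96, 9.48 and 10.33 in hCNR1-/- mice, and the interval of its log2 fold change was -0.85 to 0.66. Of the mannose-binding lectins, which recognise microbial sugars, Mbl1 was at -0.64 (interval -1.36 to 0.08) and Mbl2 at -0.30. Mbl2 had a signal of 7.20, 7.55, 7.93 and 8.79 in controls and 7.12, 7.99, 7.95 and 7.22 in hCNR1-/- mice, which overlapped. The associated proteases Masp1 and Masp2 were at -0.47 and -0.20. Without hCNR1+/+ replicate 4, 4 of the 7 were lower and 3 higher.

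C3, the component on which all pathways meet, had a signal of 10.23, 10.325, 10.39 and 11.715 in controls and 10.42, 11.025, 10.53 and 10.07 in hCNR1-/- mice. The control replicate 4 stood alone, and the other 7 arrays overlapped. The log2 fold change of C3 was -0.16, with an interval of -0.97 to 0.65 and an adjusted p of 0.834 in limma, and it was 0.19 without that array. Cfb, the protease of the alternative C3 convertase, was at -0.29. Cfd (factor D, which cleaves factor B and is also made by fat cells) had a signal of -1.52, -0.87, -0.54 and -1.65 in controls and -0.72, -0.43, -0.37 and 0.42 in hCNR1-/- mice. Its highest control lay among the hCNR1-/- values, and its log2 fold change was 0.87 ± 0.33 (SE) with an adjusted p of 0.166 in limma. For Cfd the exact permutation test gave p = 0.0571. The log2 fold change was 0.41 with array weights, 0.35 with normexp background correction and 0.31 without scaling. Of 8 adipocyte markers, Adipoq, Plin1 and Lep were above background on 0 arrays and 3 were tested. Among those Cidec, a lipid droplet gene, rose by 1.06 on the log2 scale with an adjusted p of 0.0427 in limma, and Fabp4 and Cidea were at -0.71 and -0.04. The summed signal of the 3 was 4.87 to 5.32 in controls and 4.70 to 5.69 in hCNR1-/- mice, and its part in the value of Cfd was not tested. Cfb and C2 are neighbours on chromosome 17 and had log2 fold changes of -0.29 and -0.24.

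Of the other fluid-phase regulators, Cfi (factor I, which cleaves C3b and C4b together with C4bp) was at -0.49 with an interval of -1.38 to 0.40. Serping1 (C1 inhibitor) was at 0.04. Vtn (vitronectin, which holds the terminal complex off membranes) had a signal of 9.70, 9.80, 10.05 and 10.716 in controls and 9.70, 10.18, 9.81 and 11.01 in hCNR1-/- mice, which overlapped, with a log2 fold change of 0.11 and an interval of -0.66 to 0.88.

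Among the clotting proteases, F7 (factor VII, which with tissue factor starts the extrinsic pathway) was lowest. Its signal was 2.52, 2.436, 2.998 and 4.26 in controls and 2.09, 2.26, 1.67 and 2.47 in hCNR1-/- mice. The highest hCNR1-/- value exceeded 1 control. The log2 fold change was -0.93 ± 0.40 (SE) with an adjusted p of 0.213 in limma and p = 0.0571 in the exact permutation test (n = 4 each), and without hCNR1+/+ replicate 4 it was -0.53 with an adjusted p of 0.304. F7, F10 and Proz follow each other on chromosome 8, and F10 (factor X) and Proz (protein Z) had log2 fold changes of -0.26 and -0.18, with intervals of -1.04 to 0.51 and -0.88 to 0.53.

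F2 (prothrombin) had a signal of 9.32, 9.42, 9.62 and 10.11 in controls and 9.06, 9.79, 9.54 and 9.45 in hCNR1-/- mice, and its log2 fold change of -0.16 had an interval of -0.72 to 0.40. F5 (factor V, the cofactor of factor X) was the member with the widest control spread, 1.83 to 4.89, and its log2 fold change was -0.06 ± 0.57 (SE). F9 (factor IX) and F13b (the carrier chain of factor XIII, which cross-links fibrin) were at 0.52 and 0.10. In both, hCNR1+/+ replicate 4 was the lowest control and not the highest.

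The fibrinogen genes Fgg, Fga and Fgb lie next to each other on chromosome 3. Fgg, the gamma chain, had a signal of 9.73, 9.64, 9.91 and 10.61 in controls and 8.94, 9.27, 9.79 and 9.18 in hCNR1-/- mice. The hCNR1-/- replicate 3 lay among the controls, and the log2 fold change was -0.68 ± 0.28 (SE), with an adjusted p of 0.199 in limma. For Fgg the exact permutation test gave p = 0.0857. Fgb, the beta chain, had a signal of 10.036, 9.70, 10.24 and 11.275 in controls and 10.04, 10.27, 10.56 and 10.34 in hCNR1-/- mice, with a log2 fold change of -0.01 and an interval of -0.75 to 0.73. Fga, the alpha chain, was at -0.17 by its brightest probe. Whether Fgg differed in its change from Fgb was not tested.

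The anticoagulant members were 4 lower and 2 higher. Serpinc1 (antithrombin) had a signal of 9.71, 9.77, 10.01 and 10.58 in controls and 9.72, 10.46, 9.9999 and 10.13 in hCNR1-/- mice, with a log2 fold change of 0.06 and an interval of -0.52 to 0.65. Serpind1 (heparin cofactor II) was at -0.19 and Serpina10 (the protein Z-dependent protease inhibitor) at 0.31. Proc (protein C) and its cofactor Pros1 (protein S) were at -0.24 and -0.63, the latter well above background on 7 of 8 arrays. Of the 7 vitamin K-dependent members (F2, F7, F9, F10, Proc, Pros1 and Proz), 6 were lower and 1 higher with all arrays, and 3 lower and 4 higher without hCNR1+/+ replicate 4.

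For fibrinolysis, Plg (plasminogen) was at -0.16 with an interval of -0.83 to 0.50. Serpinf2 (the plasmin inhibitor alpha-2-antiplasmin) had a signal of 9.01, 8.816, 9.08 and 9.215 in controls and 8.90, 9.50, 8.99 and 10.07 in hCNR1-/- mice, with a log2 fold change of 0.33 and an interval of -0.29 to 0.96. The interval included 0 for both, and Cpb2, described above, was the lowest of the fibrinolysis members.

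The largest pattern in these genes lay within the control group. hCNR1+/+ replicate 4 was the highest control array for 38 of 42 members (90.5%), beside 45.5% of all genes and 17 of 20 hepatocyte markers. The 4 exceptions were Cfd, F9 and F13b, for which it was the lowest control, and F12. The median deviation of the members from their mean over all 8 arrays was 0.86 on that array, -0.28, -0.28 and 0.09 on the other controls, and -0.35, 0.16, -0.01 and -0.08 on the hCNR1-/- arrays. For all genes it was 0.04 on hCNR1+/+ replicate 4, and for the hepatocyte markers 0.51.

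The spread between mice differed in the same way. The standard deviation was larger in controls for 31 of 42 members, with medians of 0.55 in controls and 0.37 in hCNR1-/- mice, whereas it was larger in controls for 32.8% of all genes. Without that array 11 of the 42 had the larger spread in controls, and the control median was 0.25. Leaving the array out changed the sign of 14 members' fold changes, beside 968 of all 11072 genes tested. The 16 members lower in that fit were C1ra, C4bp, C8a, Cfb, Cfi, Cpb2, F11, F7, Fgg, F13b, Klkb1, Masp1, Masp2, Mbl1, Proc and Pros1. In the arrays that remained the genotypes did not overlap for 3 members with higher values (C9, Hc and C8g) and 2 with lower values (C4bp and Cpb2), beside 17.5% and 6.81% of all genes.

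**Figure D3:**
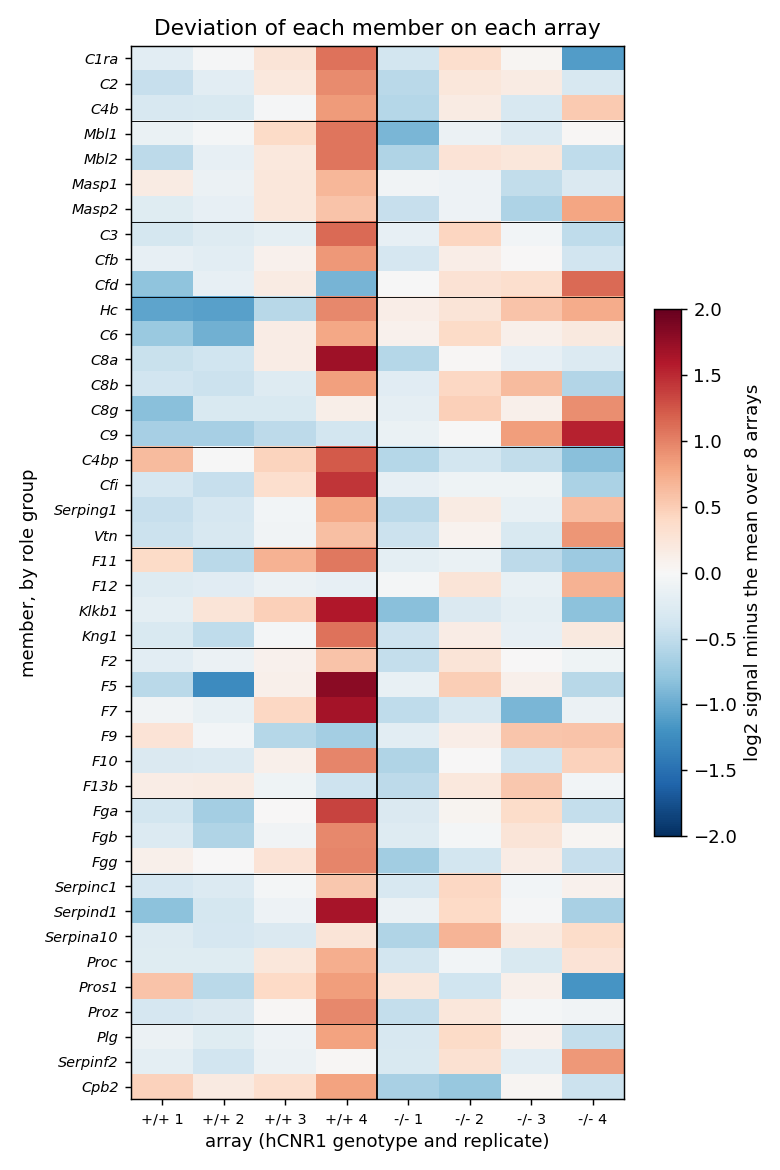
Log2 signal of each member on each array minus its mean over the 8 arrays, with role groups separated by lines. In the column of hCNR1+/+ replicate 4 the value is the highest control for 38 members, with a median deviation of 0.86, and the lowest for Cfd, F9 and F13b.

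**Figure D4:**
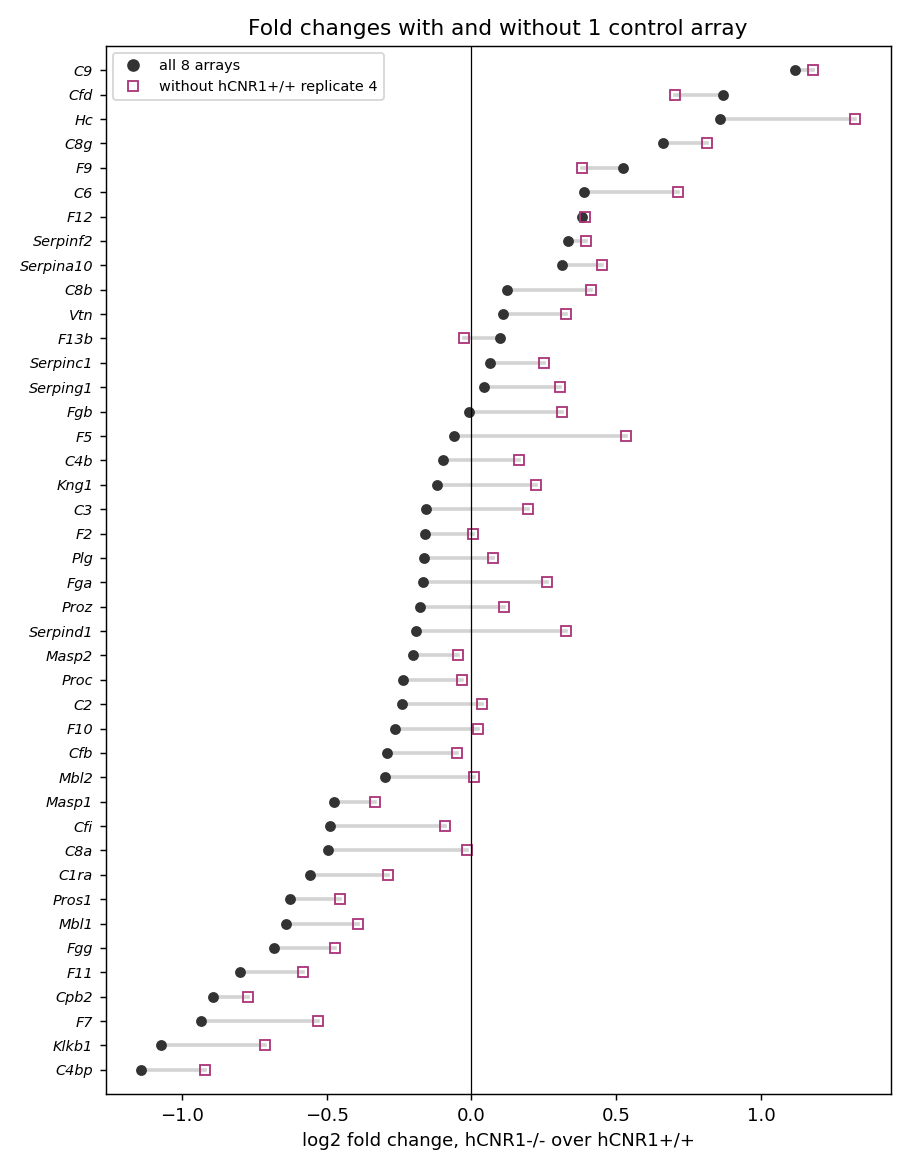
Log2 fold change of each of the 42 members with all 8 arrays (filled circles) and without hCNR1+/+ replicate 4 (open squares). The squares lie to the right of the circles for 39 members, all but Cfd, F9 and F13b. Of all 11072 genes tested, 6447 moved the same way (not drawn). The members' median goes from -0.17 to 0.09, while C4bp, Cpb2 and Klkb1 stay on the left and C9 and Hc on the right.

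11 members had several probes that passed the filter, and in 8 of them all probes had the same sign. For Fga the second probe gave a larger difference than the brightest: its signal was 2.84, 2.24, 3.29 and 5.05 in controls and 0.91, 2.11, 2.57 and 1.48 in hCNR1-/- mice, with a log2 fold change of -1.59 ± 0.58 (SE) and an adjusted p of 0.153 in limma over 13998 probes. For Kng1 the probe of the other transcript accession was at -0.67, against -0.12 for the brightest. For Masp2 the probe of a second transcript accession had a signal of -1.175, -1.22, -0.60 and 0.765 in controls and -2.155, -1.36, -1.43 and -2.07 in hCNR1-/- mice, without overlap, with a log2 fold change of -1.20 ± 0.44 (SE) and an adjusted p of 0.151 in limma, whereas the other Masp2 probes were at -0.22 and -0.20. Both F7 probes were alike, at -0.93 and -0.95, and those of C8g were at 0.66 and 0.24. These probes were tested each on its own after the data were seen, and the probes of a gene share the same RNA. In that fit 1 member probe, the only one of C4bp, had an adjusted p below 0.05. It was 0.0498 in limma, against 0.0515 in the fit by gene, from the same signal values and log2 fold change. The share of all 13998 probes below 0.05 is not given here.

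**Figure D5:**
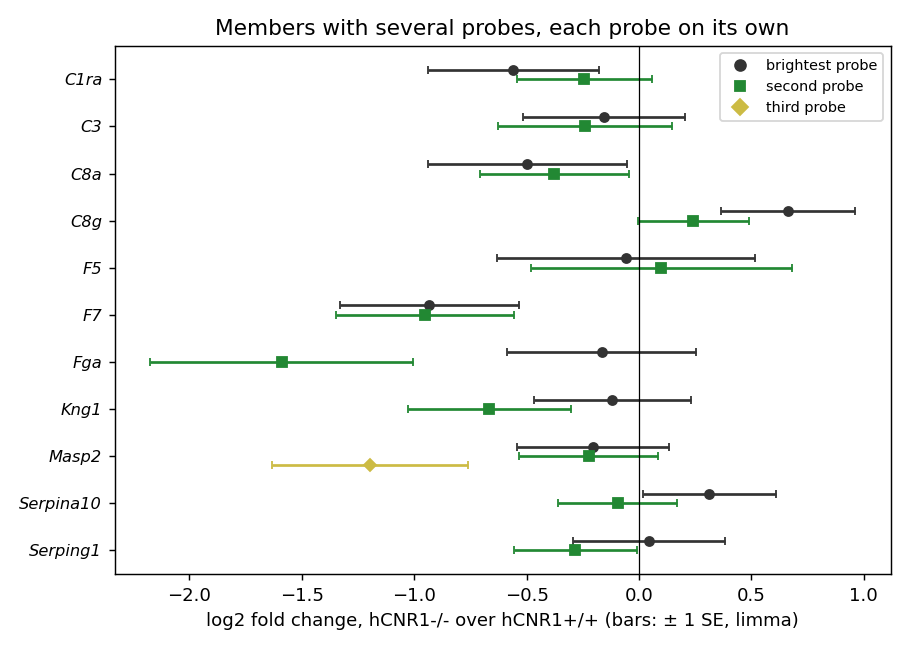
Log2 fold change ± 1 SE of each probe of the 11 members with several tested probes, ordered by brightness within the gene. Probes of Fga, Kng1 and Masp2 stand apart from each other, and those of F7 and C3 lie together.

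Of 68 further genes of these pathways, 41 were tested, 20 lower and 21 higher, with a median of 0.01, and 2 were higher and 0 lower at an adjusted p below 0.05, beside 2.94% and 1.3% of all genes. At an unadjusted p below 0.05, 4 were higher and 6 lower, beside 14.7% and 6.92% of all genes. Of 14 complement components and regulators 8 were lower, as were 2 of 4 complement receptors, 6 of 8 clotting factors and cofactors, 2 of 10 fibrinolysis genes and protease inhibitors and 2 of 4 genes of the vitamin K cycle, and the 1 protease receptor tested was higher. Serpine2, an inhibitor of thrombin and of plasminogen activators, had a signal of -2.19, -2.65, -2.935 and -2.41 in controls and -0.62, -1.06, -0.725 and -1.18 in hCNR1-/- mice. It was well above background on 1 control array and 3 hCNR1-/- arrays, so that it passed the filter mainly through the genotype where it was higher, and most of its control values are not a measured level. The fitted difference was 1.65 on the log2 scale with an adjusted p of 0.0123 in limma, and over the alternatives it was 0.54 to 1.87, with an adjusted p below 0.05 in 12 of 21.

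Vsig4, a complement receptor of Kupffer cells, was well above background on 4 control arrays and 2 hCNR1-/- arrays. Its fitted difference was -1.77 with an adjusted p of 0.0519 in limma and -2.32 to -0.55 over the alternatives. Vsig4 is itself 1 of the 13 Kupffer cell markers given above, of which 12 were lower. Thbd (thrombomodulin) was at -1.45, Ggcx (the carboxylase of vitamin K-dependent factors) at -0.56 and F2r (a thrombin receptor) at 0.11, with adjusted p-values of 0.186, 0.253 and 0.855 in limma.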

How the data were processed

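Hepatocyte RNA of 4 hCNR1+/+ and 4 hCNR1-/- mice was measured on Agilent single-colour arrays of mouse build mm9. The authors deposited, for each array, the intensity files of Feature Extraction 12.0.3.1, background-corrected within each array and unscaled between arrays. A deposited score for every spot equalled, to within 0.005, the log intensity standardised on its array. The scaling and the test of the study are not given in the sources used here. Groups came from the sample labels.

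Intensities of the non-control spots (59305 per array) were divided by the 75th percentile of the array and taken to log2, spots flagged as outliers were left out and spots of a probe averaged. Accessions of 28331 of 55681 probes were named with RefSeq gene tables (GRCm38.p6, used for names and neighbours; promoter sequences carry that build). Probes had to exceed background well on 4 or more of 8 arrays, and the brightest probe stood for the gene. The genotypes were compared with limma 3.58.1 in R 4.3.3, with Benjamini-Hochberg adjustment over all 11072 genes. For single genes an exact permutation test ran through all 70 ways to assign the arrays. On simulated data with 200 of 11072 genes changed for this comparison, 64.5% were recovered, 0 with the wrong sign. Of the unchanged genes 11 were called. The recovered share is not split by fold change, and recovery at the members' fold changes was not tested. Array number and signal over background limit the precision.

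The members and gene lists were chosen with earlier results of these data known. All 43 are named. Array values are given for members with an adjusted p below 0.05, with a fold above 2 and p below 0.05, without overlap and with a fold above 1.5, or with the largest fold changes up to 10, and for the brightest member of each role. Further pathway genes are named where they passed an adjusted p of 0.05 or changed most in their list. Some genes that this rule selects are not reported here. The alternatives were other scalings, the deposited scores, normexp (offset 50), other filters, the mean of probes, a variance trend, array weights, the replicate number as a block, and each array left out. Added after the data were seen were no scaling without hCNR1-/- replicate 4, the block with weights, and each probe on its own.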

Additional observations from a re-analysis of the deposited data

Results flagged for a closer look

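Each of the 42 members tested was examined in each genotype, as was the median deviation of the members, for an array far from the other 3 of its genotype. Of 86 such groups of 4 arrays, 5 held an array whose gap to the nearest of the others exceeded Dixon's 95% critical share of the group's range, and chance flags about 1 in 20. In 4 of the 5 the array was hCNR1+/+ replicate 4 and it was the highest. C3 was 11.7 on that array and 10.2 to 10.4 on the other controls. C8b was 6.202 there and 4.95 to 5.13 on the others. Plg was 9.11 there and 8.06 to 8.21 on the others. Serpina10 was 8.02 there and 7.42 to 7.49 on the others. The same array stood as far above the other controls for 2.69% of all genes tested. The remaining group was Cfi in hCNR1-/- mice, at 5.79 on replicate 4 and 6.27 to 6.34 on the others. All values are log2 signal over the array's 75th percentile.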

How the results depend on the processing

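The 10 members with the largest fold changes (C4bp, C9, Klkb1, F7, Cpb2, Cfd, Hc, F11, Fgg and C8g) had the same sign in every alternative in which they were tested, whereas others, among them C3, C4b, Kng1, Vtn and Fgb, changed sign in at least 1. Lower members at an adjusted p below 0.05 numbered 0, but 1 (C4bp) under quantile normalization, with the 75th percentile over bright probes, and with each stricter filter, 2 (C4bp and Cpb2) with a variance trend, 4 with array weights, 3 with the replicate block and array weights, and 0 to 2 when an array was left out. Higher members numbered 0, but 2 with array weights (Hc and C9), 3 with the block and weights, and 0 to 1 without an array. Among all 11072 genes tested, array weights called 2176 higher and 646 lower, and the block with weights 1883 and 675. The lower calls numbered 87 under quantile normalization, 206 with the bright-probe percentile and 136 with a variance trend. The filter on all 8 arrays called 54 of 8371 genes lower, and that on 1 genotype 170 of 10061. Without an array, the calls over all genes were 13 to 1121 higher and 25 to 323 lower. By fold above 2 and unadjusted p, 1 higher member became 0 with the bright-probe percentile, without scaling, without scaling and hCNR1-/- replicate 4, and with normexp, and 0 to 2 without an array. The 2 lower members became 3 with the deposited scores (C4bp, Klkb1 and F7). They became 4 with the bright-probe percentile, quantile normalization, or without scaling and hCNR1-/- replicate 4, and 6 without scaling. They became 1 with the filter on all 8 arrays, 0 with array weights or with the block and weights, and 0 to 4 without an array. The members' median of -0.17 was -0.72 without scaling, where all genes stood at -0.47, -0.02 with array weights (22 lower, 20 higher), 0.03 with the block and weights (18 lower, 24 higher), and -0.31 to 0.09 without an array. Under quantile normalization it was -0.47 beside -0.01 for all genes. Further pathway genes higher at an adjusted p below 0.05 numbered 2, but 5 with array weights, alone or with the block, 1 under quantile normalization and either stricter filter, 0 with the deposited scores, median scaling, no filter, no scaling, no scaling without hCNR1-/- replicate 4, normexp or the replicate block, and 0 to 3 without an array. Those lower numbered 0, but 6 with array weights, 2 with the block and weights, 1 with the filter on 1 genotype, and 0 to 2 without an array.

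With the replicate number as a block, 0 of all genes passed an adjusted p of 0.05, and the fold rule gave 1 higher and 2 lower member as before. The correlations of same-numbered arrays' deviations were 0.21, -0.16, -0.05 and 0.02. The labels do not say whether the number pairs the mice, and these correlations cannot settle it. The number is also the column of the array on the slide, in both rows. Over all genes the calls at an adjusted p below 0.05 made up 4.24%, 25.5% with array weights and 13.04% without hCNR1-/- replicate 4. The causes of these changes were not tested.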
